A study of Arabidopsis thaliana with 9 samples.

Results

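Transcript levels of 8 genes of the root cap were followed in root tips of 3 Arabidopsis thaliana genotypes, out of 33560 genes in the deposited table. The genes were chosen by name for their known place in root cap development, with earlier results of these data known. They were the NAC-domain transcription factors FEZ (AT1G26870), SMB (AT1G79580), BRN1 (AT1G33280) and BRN2 (AT4G10350), the auxin response factors ARF10 (AT2G28350) and ARF16 (AT4G30080), the nuclease BFN1 (AT1G11190) and the cellulase CEL5 (AT1G22880). All 8 were found in the table, and 7 of them averaged 1 FPKM or more across all libraries, the level set for testing, while FEZ did not. FPKM is a fragment count scaled by transcript length and library size.

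Each genotype had 3 RNA sequencing libraries. The wild type is Col-0. The wox5-1 line carries a mutant allele of WOX5, and the seu-3 line carries a mutant allele of SEU; each mutant is a single line, so the allele cannot be told apart from anything else that line carries. All seedlings were 5 days old and were grown upright on medium with 1% sucrose in 16 h light and 8 h dark, after 2 days in the cold. The tissue was about 1 mm of root tip by the series description and about 3 mm by the extraction protocol. The root cap is a small part of either length, so all values are averages over cap and other tissues, and fewer cap cells cannot be told apart from less RNA per cap cell. Whether replicate libraries stem from independently grown seedlings is not stated, so a p-value here reflects only library-to-library spread, which may be technical.

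The root cap covers the growing tip of the root. Its centre, the columella, holds starch grains that settle with gravity, and its flanks are the lateral root cap. Both are renewed by stem cells next to the quiescent centre, and old cap cells die or are shed at the outside. FEZ promotes the divisions of cap stem cells that add new layers and activates SMB; SMB in turn restricts FEZ and promotes maturation of the daughter cells. BRN1 and BRN2 act together with SMB in late maturation and in the release of cap cells. SMB also prepares lateral root cap cells for their death, in which BFN1 degrades nucleic acids, and CEL5 loosens the walls of cap cells that detach. WOX5, made in the quiescent centre, keeps columella stem cells undifferentiated, while ARF10 and ARF16, which are cut by the microRNA miR160, restrict these stem cells. SEU encodes a co-regulator of transcription and a partner of LEUNIG.

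ARF10 and ARF16 share their regulation by miR160 with ARF17, so the mature microRNA and its complementary site in each transcript are shown. The mature sequence, read from the RefSeq TAIR10.1 annotation, was identical for the 3 annotated MIR160 genes, and its seed (bases 2 to 8) is in capitals.
miR160: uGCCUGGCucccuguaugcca
The sites lie in coding exons, at chr2:12115741-12115761 on the plus strand for ARF10, chr4:14704141-14704161 on the minus strand for ARF16 and chr1:29274189-29274209 on the plus strand for ARF17. Each is written 5′ to 3′ in the sense of the transcript, with capitals at bases that do not form a Watson-Crick pair with miR160.
ARF10: AggAauacagggagccaggca
ARF16: GggUUuacagggagccaggca
ARF17: uggcauGcagggagccaggca
Counted from the 5′ end of the microRNA, ARF10 had mismatches at positions 18 and 21. ARF16 had mismatches at positions 17 and 21 and a G-U wobble at position 18, and ARF17 had a wobble at position 15. All 3 sites pair with the whole seed.

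The 250 bases before the annotated start are shown for BRN2 and BFN1, the genes with an auxin response element among the 7 windows examined. Any bearing of this element on the changes below was not tested. Capitals mark 2 short motifs on either strand: CACG, the core bound by many NAC factors, and TGTCTC, the auxin response element. They lie at chr4:6416962-6417211 and chr1:3752781-3753030, both on the minus strand of TAIR10.1.
BRN2: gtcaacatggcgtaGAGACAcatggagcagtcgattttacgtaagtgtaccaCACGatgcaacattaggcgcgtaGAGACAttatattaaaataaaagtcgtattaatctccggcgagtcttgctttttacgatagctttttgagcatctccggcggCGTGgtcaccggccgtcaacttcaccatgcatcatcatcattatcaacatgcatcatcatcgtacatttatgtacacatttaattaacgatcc
BFN1: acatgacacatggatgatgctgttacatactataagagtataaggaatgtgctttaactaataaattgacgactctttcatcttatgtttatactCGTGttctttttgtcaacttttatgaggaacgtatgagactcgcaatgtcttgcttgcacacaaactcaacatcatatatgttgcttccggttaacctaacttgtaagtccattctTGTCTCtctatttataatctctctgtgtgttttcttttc
CACG was found in 4 of 7 promoters examined, and in 45.6% of 27443 promoters of the same length. BRN2 held 2 matches, FEZ, ARF10 and BFN1 held 1 each, and SMB, ARF16 and CEL5 had none in this window. TGTCTC was found in 2 of the 7, with 2 matches in BRN2 and 1 in BFN1, against 10.9% of all promoters. The secondary wall NAC binding element core CTTNNNNNNNAAG was in 0 of the 7 windows and in 9.7% of all promoters. CACG and TGTCTC can share bases, but no 2 matches overlapped in the 7 windows; a match describes the sequence and shows no binding.

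None of the 8 genes overlaps another annotated gene in TAIR10.1. BRN1 and BRN2 are close copies, with 82.6% identity over their aligned coding bases and a longest identical run of 24 bases, and CEL5 and its neighbour in the family, CEL3, had 82.0% and a run of 23. SMB shared 71.1% with each of BRN1 and BRN2 and 65.4% with FEZ, and ARF10 shared 68.7% with ARF16. How the authors assigned fragments that match several genes is not given in the sources used here.

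The mutated genes served as a check of the labels. WOX5 was listed at 0.301, 0.461 and 0.524 FPKM in wild-type libraries and at 0 in all 3 wox5-1 libraries. SEU fell in seu-3, from 15.1 ± 3.15 to 4.71 ± 0.513 FPKM (SD, n = 3; limma adjusted p = 0.000580). WOX5 was listed at 0.0884, 0 and 0 FPKM in seu-3. The FPKM of a library summed to between 794809 and 839181, and read depth is unknown since the values are not counts. The median of all 17062 tested genes moved by -0.24 on the log2 scale in seu-3 against Col-0, and by 0.05 in wox5-1. In seu-3 the fit called 1136 genes higher and 5830 lower; with median-ratio scaling, which brings the median to 0.01, it called 3186 higher and 2934 lower. Between the mutants the split was 3400 higher and 7613 lower in seu-3, and 5618 and 5402 with that scaling. Changes in seu-3 are therefore also given relative to the median where it matters. Changes below are differences of mean log2(FPKM + 1), which understate the change of low genes, and a call is an adjusted p below 0.05 in limma.

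FEZ, the factor of cap stem cell division, was the lowest of the 8 genes. It was listed at 1.25, 0.618 and 0.444 FPKM in Col-0, at 0.714, 0.653 and 1.11 in wox5-1 and at 0.0795, 0.115 and 0 in seu-3. All 3 seu-3 libraries lay below all others, while Col-0 and wox5-1 overlapped. By exact permutation (two-sided) seu-3 gave p = 0.1 against each of the other genotypes, the smallest possible with 3 against 3, and wox5-1 gave p = 0.8 against Col-0. In a fit without the filter on low values, seu-3 differed from Col-0 by -0.71 (limma adjusted p = 0.0160) and from wox5-1 by -0.77 (limma adjusted p = 0.00463). The seu-3 values were 0.378, 0.419 and 0 times the tenth percentile of non-zero FPKM among 2457 genes of like transcript length, against 1.51 to 3.53 times in Col-0 and 2.53 to 4.46 times in wox5-1. Every seu-3 value was thus below that percentile, and every other value was above it.

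SMB, the factor of cap cell maturation, fell in both mutants. It stood at 10.2, 9.43 and 11.2 FPKM in Col-0, at 5.16, 7.69 and 5.68 in wox5-1 and at 4.74, 4.00 and 5.02 in seu-3. Every mutant library lay below every Col-0 library, and the mutants did not overlap each other. Mean FPKM came to 10.3 ± 0.865 for Col-0, 6.18 ± 1.34 for wox5-1 and 4.59 ± 0.530 for seu-3 (SD, n = 3). The fall was 1.66-fold in wox5-1 (-0.66, SE 0.15, adjusted p = 0.0146) and 2.24-fold in seu-3 (-1.01, SE 0.15, adjusted p = 0.00283). Relative to the median of all genes the seu-3 change was -0.77. Without wox5-1 replicate 1 the wox5-1 call was lost, at -0.56 and adjusted p = 0.0556. The difference between the mutants was not called, at -0.35 with a 95% interval of -0.68 to -0.02 and adjusted p = 0.0620; it was called without wox5-1 replicate 1, at -0.45 (adjusted p = 0.0339), and it was 0.06 with quantile normalization. Both mutants share the Col-0 libraries as controls.

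BRN1, a partner of SMB in late maturation, fell in wox5-1 and was not called in seu-3. It stood at 48.7, 41.0 and 30.1 FPKM in Col-0, at 17.4, 20.6 and 21.4 in wox5-1 and at 54.2, 49.8 and 52.5 in seu-3. The 3 groups did not overlap, in the order wox5-1, Col-0, seu-3. BRN1 averaged 39.9 ± 9.35 FPKM for Col-0, 19.8 ± 2.16 for wox5-1 and 52.2 ± 2.22 for seu-3. The fall in wox5-1 was 2.02-fold (-0.95, SE 0.16, adjusted p = 0.00495). In seu-3 against Col-0 the difference of 0.40 was not called (95% interval 0.04 to 0.76, adjusted p = 0.0696). It was called higher with median-ratio scaling (0.69, adjusted p = 0.0137), with quantile normalization (0.52, adjusted p = 0.0405), with sample quality weights (0.42, adjusted p = 0.00358) and without Col-0 replicate 1 (0.56, adjusted p = 0.0230). Against wox5-1, BRN1 was 2.63-fold higher in seu-3 (1.36, SE 0.16, adjusted p = 0.000146).

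BRN2, the close copy of BRN1, had the largest fall of the 7 tested genes in wox5-1. It stood at 36.0, 37.3 and 39.2 FPKM in Col-0, at 13.7, 17.2 and 12.9 in wox5-1 and at 34.8, 33.6 and 33.6 in seu-3. All wox5-1 libraries lay far below the rest, and the seu-3 libraries lay just below Col-0 without overlap. BRN2 averaged 37.5 ± 1.63 FPKM for Col-0, 14.6 ± 2.27 for wox5-1 and 34.0 ± 0.709 for seu-3. The fall in wox5-1 was 2.57-fold (-1.31, SE 0.11, adjusted p = 0.000353). In seu-3 the difference was not called, at -0.14 with a 95% interval of -0.39 to 0.11 (adjusted p = 0.337), and its sign turned with median-ratio scaling (0.15) and quantile normalization (0.02). Between the mutants BRN2 was 2.33-fold higher in seu-3 (1.17, SE 0.11, adjusted p = 8.60e-05).

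**Figure D1:**
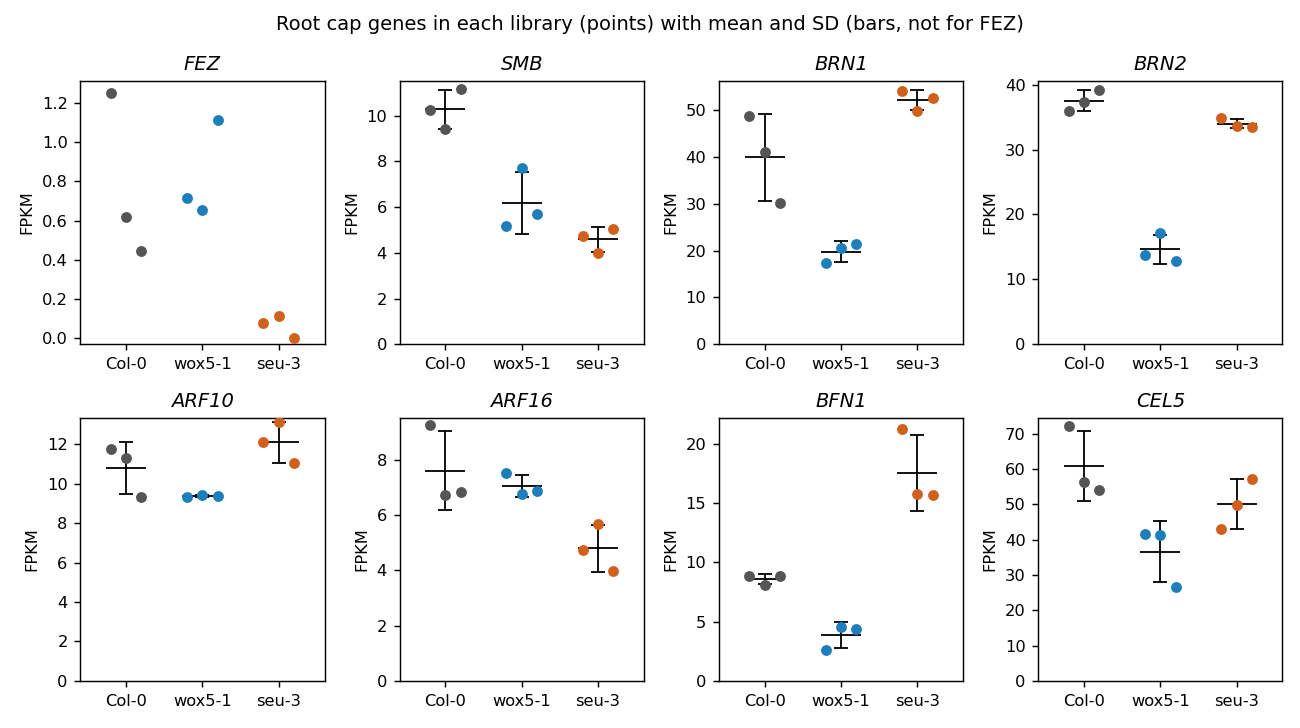
FPKM of the 8 root cap genes in each of the 9 libraries, 1 panel a gene, with points for libraries and bars for the mean ± SD over 3 libraries (no bars for FEZ, which is listed at 0 in a seu-3 library). BRN1, BRN2 and BFN1 are lowest in wox5-1, whereas SMB is lowest in seu-3, where its libraries lie between 4.00 and 5.02 FPKM.

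Within a library, the ratio of 2 genes does not move with the scaling of that library, so ratios were compared too. BRN1 stood at 4.76, 4.35 and 2.70 times SMB in the Col-0 libraries, at 3.37, 2.68 and 3.77 times in wox5-1 and at 11.4, 12.5 and 10.5 times in seu-3. The seu-3 libraries stood clear of the others, and Col-0 and wox5-1 overlapped. BRN2 stood at 3.52, 3.96 and 3.52 times SMB in Col-0, at 2.66, 2.23 and 2.27 times in wox5-1 and at 7.34, 8.40 and 6.68 times in seu-3, with no overlap between any 2 genotypes. On the log2 scale of (FPKM + 1) the seu-3 ratio exceeded that of Col-0 by 1.42 for BRN1 and by 0.88 for BRN2. BRN2 relative to BRN1 was 0.739, 0.911 and 1.30 in Col-0 and 0.642, 0.674 and 0.639 in seu-3, with every seu-3 library below Col-0. The difference in this ratio was -0.54 on the log2 scale. SMB stood at 8.19 to 25.1 times FEZ in Col-0, at 5.10 to 11.8 times in wox5-1 and at 59.6 and 34.8 times in seu-3 replicates 1 and 2, with no ratio in the third, where FEZ is listed at 0. With 1 FPKM added to each gene, more than most FEZ values, this ratio overlapped between the genotypes, and seu-3 against Col-0 was -0.31 on the log2 scale; with 0.1 FPKM added it was 1.22.

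The other ratios concerned later steps. BFN1 stood at 0.865, 0.859 and 0.789 times SMB in Col-0, at 0.502, 0.595 and 0.772 times in wox5-1 and at 4.48, 3.93 and 3.11 times in seu-3. All 3 seu-3 libraries held more BFN1 than SMB, and all others held less. CEL5 stood at 4.86 to 7.07 times SMB in Col-0, 4.69 to 8.10 times in wox5-1 and 9.08 to 12.5 times in seu-3. In all, 7 ratios were compared in 3 contrasts, and 12 of these 21 comparisons did not overlap. For single genes, libraries did not overlap in 50.2% of all tested genes in wox5-1 and 56.3% in seu-3 against Col-0. Between the mutants the share was 71.0%. The share over all gene pairs was not computed, and most of the ratios share SMB. Each of the 12 reached p = 0.1 by exact two-sided permutation, which is the lowest value open to 3 against 3, and 0.175 after Benjamini-Hochberg adjustment over the 21, so none could pass the threshold.

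**Figure D2:**
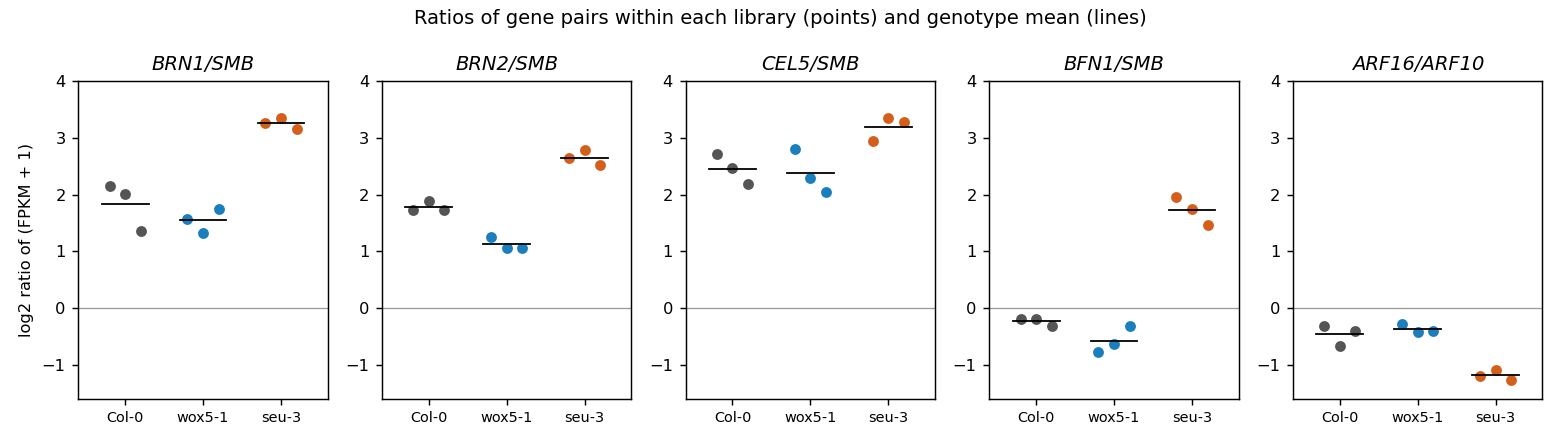
Log2 ratio of (FPKM + 1) for 5 gene pairs within each library, with points for the 3 libraries of each genotype and lines for their mean. In seu-3 the 4 ratios over SMB lie above those of Col-0 and wox5-1, and ARF16 over ARF10 lies below.

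ARF10 and ARF16, the auxin response factors that restrict columella stem cells, were not called in wox5-1. ARF10 stood at 11.8, 11.3 and 9.32 FPKM in Col-0, at 9.33, 9.44 and 9.37 in wox5-1 and at 12.1, 13.1 and 11.0 in seu-3. Both mutants overlapped with Col-0, and the mutants did not overlap each other. Mean FPKM came to 10.8 ± 1.30 for Col-0, 9.38 ± 0.0575 for wox5-1 and 12.1 ± 1.05 for seu-3. Neither difference from Col-0 was called, at -0.18 in wox5-1 (95% interval -0.43 to 0.08, adjusted p = 0.245) and 0.15 in seu-3 (-0.10 to 0.41, adjusted p = 0.295). The seu-3 difference was called with median-ratio scaling (0.42, adjusted p = 0.0162) and quantile normalization (0.41, adjusted p = 0.0236). Between the mutants ARF10 was 1.29-fold higher in seu-3 (0.33, adjusted p = 0.0267), a call that was lost without seu-3 replicate 1 or 2 or any 1 wox5-1 library, at adjusted p of 0.0553 to 0.0794.

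ARF16 fell in seu-3. It stood at 9.25, 6.73 and 6.84 FPKM in Col-0, at 7.51, 6.76 and 6.88 in wox5-1 and at 4.73, 5.66 and 3.98 in seu-3. The seu-3 libraries lay below all others, and Col-0 and wox5-1 overlapped. Mean FPKM came to 7.61 ± 1.43 for Col-0, 7.05 ± 0.403 for wox5-1 and 4.79 ± 0.841 for seu-3. The seu-3 change against Col-0 was -0.57 (SE 0.15, adjusted p = 0.0155), or -0.32 relative to the median of all genes. That call was lost with median-ratio scaling (-0.32, adjusted p = 0.0972), with quantile normalization (-0.21, adjusted p = 0.279) and without seu-3 replicate 3 (-0.47, adjusted p = 0.0550). Against wox5-1 the change was -0.48 (adjusted p = 0.0174); it was lost with both scalings (-0.21, adjusted p = 0.218, and -0.08, adjusted p = 0.615), when seu-3 replicate 3 (adjusted p = 0.0625) or wox5-1 replicate 1 (adjusted p = 0.0556) was left out. In wox5-1 the difference from Col-0 was -0.08 (95% interval -0.42 to 0.25, adjusted p = 0.683).

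The ratio of ARF16 to ARF10 needs no scaling of the libraries. It was 0.786, 0.597 and 0.733 in Col-0, 0.805, 0.716 and 0.734 in wox5-1 and 0.391, 0.431 and 0.361 in seu-3. The seu-3 libraries lay below all others, by 0.72 on the log2 scale of (FPKM + 1) against Col-0. This log2 difference was -0.72 in seu-3 and 0.09 in wox5-1, where the libraries overlapped with Col-0.

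Of 5 further genes around these factors, 2 were tested. ARF17, the third target of miR160, rose in seu-3 from 3.33 ± 0.464 to 5.38 ± 0.860 FPKM (0.56, adjusted p = 0.0151) and was 3.22 ± 0.452 in wox5-1. The call was lost without Col-0 replicate 2 or 3 or seu-3 replicate 3, at adjusted p of 0.0508 to 0.0561. IAA17, a repressor of auxin response that the reference lists as AXR3, fell in wox5-1 and rose in seu-3, from 264.6 ± 14.5 FPKM to 186.5 ± 30.3 (-0.51, adjusted p = 0.0177) and to 385.6 ± 24.5 (0.54, adjusted p = 0.00830). The wox5-1 call was lost without Col-0 replicate 1 (adjusted p = 0.0520) or 2 (adjusted p = 0.0626). The 3 MIR160 genes were listed at 0 in all 9 libraries, and mature microRNA is not measured here. Of the 3 targets of miR160 in seu-3, ARF16 was called lower, ARF17 higher and ARF10 neither in the main fit. This split depended on scaling. ARF16 was not called with median-ratio scaling (adjusted p = 0.0972) or quantile normalization (adjusted p = 0.279). ARF10 was called higher with both (adjusted p = 0.0162 and 0.0236).

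BFN1, the nuclease of dying cells, moved in opposite directions in the mutants. It stood at 8.85, 8.10 and 8.80 FPKM in Col-0, at 2.59, 4.57 and 4.39 in wox5-1 and at 21.2, 15.7 and 15.6 in seu-3. The 3 genotypes did not overlap, in the order wox5-1, Col-0, seu-3. BFN1 averaged 8.58 ± 0.421 FPKM for Col-0, 3.85 ± 1.10 for wox5-1 and 17.5 ± 3.22 for seu-3. It fell 2.23-fold in wox5-1 (-1.01, SE 0.18, adjusted p = 0.00676) and rose 2.04-fold in seu-3 (0.94, SE 0.18, adjusted p = 0.00553). Between the mutants it was 4.55-fold higher in seu-3 (1.95, adjusted p = 8.44e-05). In seu-3, BFN1 rose while SMB fell.

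A list of 10 other genes linked to developmental cell death was set beside BFN1, and 8 of them were tested. This list, like the others, was chosen with earlier results of these data known. In wox5-1 all 8 were called lower, beside 13.5% of all tested genes. The median change of the 8 was -0.85 against 0.05 for all genes. The aspartyl protease gene AT4G04460 went from 56.9 ± 3.01 to 19.99 ± 5.07 FPKM (-1.50, adjusted p = 0.00174) and AT2G14095, an uncharacterized protein gene, from 29.7 ± 0.479 to 12.9 ± 4.22 (-1.19, adjusted p = 0.00559). The metacaspase MC9, a protease of dying cells, went from 107.8 ± 10.9 to 49.98 ± 14.8 (-1.13, adjusted p = 0.00570), and the ribonuclease RNS3 from 173.9 ± 9.96 to 92.1 ± 16.9 (-0.93, adjusted p = 0.00666). The other 4 were SCPL48, AT4G18425 and the NAC factors ANAC087 and ANAC046. Without Col-0 replicate 2 the calls of AT4G18425 (adjusted p = 0.0509) and ANAC046 (adjusted p = 0.0559) were lost.

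In seu-3, 4 of the 8 were called higher against Col-0 and none lower, beside 6.66% higher and 34.2% lower of all tested genes. The median change of the 8 was 0.61 against -0.24 for all genes. RNS3 rose to 284.1 ± 54.7 FPKM (0.69, adjusted p = 0.0114) and the carboxypeptidase gene SCPL48 from 50.1 ± 3.43 to 98.98 ± 10.4 (0.97, adjusted p = 0.00327). AT4G18425, a DUF679 membrane protein gene, rose from 10.8 ± 1.33 to 17.8 ± 1.60 (0.68, adjusted p = 0.0132), and AT2G14095 rose to 52.6 ± 8.36 (0.79, adjusted p = 0.0146), a call lost without seu-3 replicate 1 (adjusted p = 0.0526). MC9 (0.54, adjusted p = 0.0534), ANAC087 (0.34, adjusted p = 0.0687), AT4G04460 (0.43, adjusted p = 0.0943) and ANAC046 (-0.18, adjusted p = 0.414) were not called. The count rose to 7 with median-ratio scaling, with sample quality weights and without wox5-1 replicate 1. Against wox5-1 all 8 were called higher in seu-3, beside 19.9% of all tested genes, with a median change of 1.64. AT4G04460 and SCPL48 overlap another annotated gene, and strand-specific counting is not stated.

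Markers of other tissues in which some of these genes are also active were read beside them. Of all tested genes, 27.3% were called in wox5-1 against Col-0, 40.8% in seu-3 against Col-0 and 64.5% between the mutants. Of 7 xylem markers, 5 were tested and 0 were called in any of the 3 contrasts. Their summed FPKM ranged from 42.3 to 55.1 in Col-0, 36.1 to 51.5 in wox5-1 and 30.6 to 50.8 in seu-3, so the groups overlapped. At an unadjusted p below 0.05 there was 1 in each mutant against Col-0 and 0 between the mutants, and the F test over the genotypes called 0. The defining xylem regulator VND6 was at 0.0724 to 0.203 FPKM as genotype means, and neither it nor VND7 passed the filter. VND7 was at 0.415, 0.439 and 0.687 FPKM in Col-0, at 0.814, 1.34 and 0.948 in wox5-1 and at 0.140, 0.415 and 0.174 in seu-3. Its genotypes did not overlap, though Col-0 replicate 1 and seu-3 replicate 2 were nearly equal, at 0.4153 and 0.4151 FPKM. The fit without the filter called VND7 between the mutants (-0.71, limma adjusted p = 0.00204) and not in wox5-1 (0.42, adjusted p = 0.0554) or seu-3 (-0.29, adjusted p = 0.128) against Col-0. Of 6 root hair markers tested, 3 fell in wox5-1 (EXPA7, EXPA18 and RHS1) and 0 rose, beside 13.5% lower and 13.7% higher of all tested genes. In seu-3, where 6.66% of all tested genes were called higher, COBL9 rose. The other 5 were not called, with EXPA7 at 0.38 (limma adjusted p = 0.0521), EXPA18 at 0.16, RHS19 at 0.04, RSL4 at -0.13 and RHS1 at -0.29. The libraries of EXPA7 and EXPA18, like those of COBL9, lay above Col-0 without overlap, beside 56.3% of all tested genes without overlap. Compared with wox5-1, seu-3 had 5 of the 6 called higher, beside 19.9% of all tested genes, and 0 lower. The summed FPKM of the 6 was 1592 to 1672 in Col-0, 1048 to 1400 in wox5-1 and 1679 to 2059 in seu-3. Of the meristem markers, 2 of 4 were called higher in wox5-1 (PLT1 and CYCB1;1), beside 13.7% of all tested genes. In seu-3, 3 of 4 were called lower (PLT2, CYCB1;1 and SCR), beside 34.2% of all tested genes. The median change of the 4 in seu-3 was -0.65, against -0.24 for all tested genes. All 4 were called lower in seu-3 than in wox5-1, beside 44.6% of all tested genes. The sum of the 4 was 28.5 to 34.4 FPKM in Col-0, 37.7 to 44.0 in wox5-1 and 14.1 to 26.1 in seu-3. The part of tissue composition or of the length sampled in the changes of the root cap genes was not tested.

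A wox5-1 library stood apart in 4 shoot and pollen markers. Their summed FPKM was 96.9 in wox5-1 replicate 3, 16.0 and 5.50 in the other wox5-1 libraries, 2.45 to 5.22 in Col-0 and 3.80 to 6.10 in seu-3. LP1, AGP23 and AGP40 were listed at 0 in every Col-0 and seu-3 library and above 0 in every wox5-1 library. LP1, for example, was at 4.98, 1.32 and 21.9 FPKM in wox5-1 replicates 1, 2 and 3. These genes were called higher in wox5-1 against Col-0 (adjusted p of 0.0159 to 0.0348), while RBCS1A was not (adjusted p = 0.453). Without wox5-1 replicate 3, 5 root cap genes were called, as with it, in wox5-1 against Col-0. LP1, AGP23 and AGP40 were above 0 in the remaining wox5-1 libraries too, so that fit cannot set them apart from genotype.

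CEL5, the cellulase of detaching cap cells, was the most abundant of the 8 genes in Col-0 and wox5-1. It stood at 72.3, 56.4 and 54.2 FPKM in Col-0, at 41.8, 41.4 and 26.6 in wox5-1 and at 43.0, 49.9 and 57.2 in seu-3. The wox5-1 libraries lay below all others, and seu-3 overlapped with Col-0. CEL5 averaged 61.0 ± 9.89 FPKM for Col-0, 36.6 ± 8.64 for wox5-1 and 50.0 ± 7.06 for seu-3. The fall in wox5-1 was 1.67-fold (-0.74, SE 0.19, adjusted p = 0.0235), and it was lost without Col-0 replicate 1 (adjusted p = 0.0691) or 2 (adjusted p = 0.0605). In seu-3 the difference from Col-0 was -0.28 (95% interval -0.70 to 0.15, adjusted p = 0.261); it was called lower with sample quality weights (-0.39, adjusted p = 0.0211) and was 0.01 with median-ratio scaling. Between the mutants the difference of 0.46 was not called (adjusted p = 0.0562), but it was with median-ratio scaling (0.78, adjusted p = 0.00597), quantile normalization (0.58, adjusted p = 0.0266), sample quality weights (0.39, adjusted p = 0.0455) and without seu-3 replicate 1, wox5-1 replicate 1 or wox5-1 replicate 2 (adjusted p of 0.0447 to 0.0487).

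Of 8 other genes of cell separation, 5 were tested, and 3 of them rose strongly in seu-3, beside 6.66% of all tested genes called higher. CEL3, the cellulase closest to CEL5, stood at 16.4, 17.5 and 13.4 FPKM in Col-0, at 17.7, 17.7 and 10.4 in wox5-1 and at 72.1, 68.3 and 92.0 in seu-3. It rose 4.92-fold in seu-3 (2.22, SE 0.20, adjusted p = 0.000467). Although CEL3 and CEL5 are alike in coding sequence, CEL5 was not called in seu-3. AT1G65570, a gene annotated as a pectin lyase-like protein, rose from 54.0 ± 3.56 to 166.8 ± 18.0 FPKM (1.61, adjusted p = 0.00198). IDL1, which encodes a small secreted peptide, rose from 22.1 ± 5.27 to 67.5 ± 8.05 (1.59, adjusted p = 0.00636). HSL2, a receptor kinase for such peptides, stood at 3.91 ± 0.295, 3.98 ± 0.282 and 3.91 ± 0.804 FPKM in Col-0, wox5-1 and seu-3 and was not called.

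In wox5-1, 1 of these 5 fell, beside 13.5% of all tested genes called lower. NLP7, a regulator of nitrate response that also acts in cap cell release, went from 29.8 ± 3.41 to 20.3 ± 5.13 FPKM (-0.55, adjusted p = 0.0368). That call was lost under several alternatives, among them the fit without the filter (adjusted p = 0.0544), the replicate block (adjusted p = 0.0537) and the fit without Col-0 replicate 1, 2 or 3, seu-3 replicate 1 or wox5-1 replicate 1 or 3 (adjusted p of 0.0558 to 0.106). AT1G65570 was 40.1 ± 13.1 FPKM in wox5-1 (-0.47, adjusted p = 0.114) and was called lower there without wox5-1 replicate 2 (adjusted p = 0.0364) and with sample quality weights (adjusted p = 0.0412). IDL1 stood at 12.4, 11.0 and 30.8 FPKM in wox5-1 (-0.39, adjusted p = 0.368) and was called lower without replicate 3, the highest (-0.84, adjusted p = 0.0225). Between the mutants 4 of the 5 were higher in seu-3, beside 19.9% of all tested genes. The median change of the 5 was -0.39 in wox5-1, which is the value of IDL1, 1.59 in seu-3 and 1.98 between the mutants, beside 0.05, -0.24 and -0.27 for all tested genes.

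**Figure D3:**
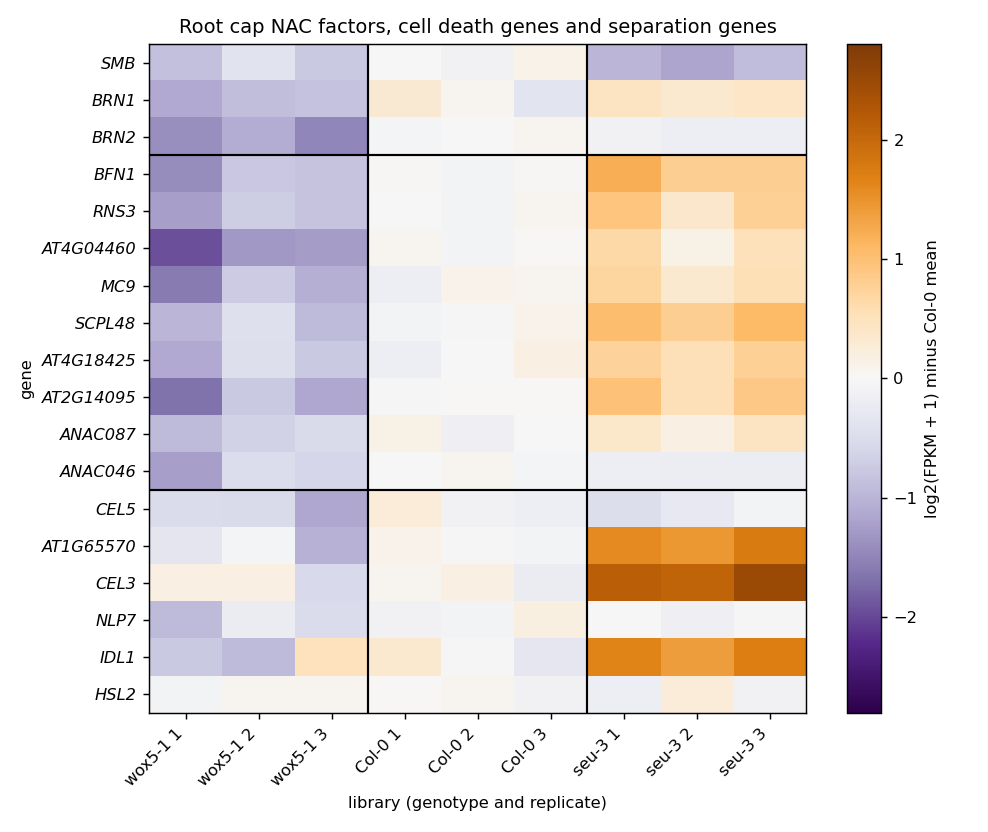
Log2(FPKM + 1) minus the Col-0 mean, in colour, for SMB, BRN1 and BRN2 (top), BFN1 with 8 cell death genes (middle) and CEL5 with 5 separation genes (bottom), with 1 column for each library. The cell death genes are low in all 3 wox5-1 libraries, and AT1G65570, CEL3 and IDL1 are high in all 3 seu-3 libraries, where SMB is low.

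Around the stem cells, 4 of 10 genes of cap fate were tested. In wox5-1 against Col-0, 0 were called, beside 27.3% of all tested genes. At an unadjusted p below 0.05 there were 2: RBR1, the retinoblastoma-related brake on cell division, and HDA19, a histone deacetylase, with differences of 0.29 (adjusted p = 0.107) and 0.38 (adjusted p = 0.101). In seu-3 against Col-0 these 2 of the 4 were called lower, beside 34.2% of all tested genes. RBR1 fell from 6.51 ± 0.469 to 4.27 ± 0.802 FPKM (-0.52, adjusted p = 0.0118) and HDA19 from 37.7 ± 2.38 to 21.5 ± 5.23 (-0.81, adjusted p = 0.00581). The RBR1 call was lost with median-ratio scaling (-0.28, adjusted p = 0.0896) and quantile normalization (-0.14, adjusted p = 0.354). Compared with wox5-1, 3 of the 4 were called lower in seu-3, beside 44.6% of all tested genes. They were RBR1 (-0.81, limma adjusted p = 0.000473), HDA19 (-1.18, limma adjusted p = 0.000233) and AT2G34140. AT2G34140, a Dof-type zinc finger gene, averaged 1.55 ± 0.474 FPKM for Col-0, 2.38 ± 0.846 for wox5-1 and 0.889 ± 0.0970 for seu-3, and it was called between the mutants (-0.81, adjusted p = 0.00579) but not against Col-0. The call was lost with quantile normalization (-0.37, adjusted p = 0.160), and seu-3 against Col-0 was called lower with sample quality weights (-0.65, adjusted p = 0.00175). CLE40, a peptide that signals to these stem cells, was listed at 0 in all libraries. TPL, a co-repressor, had a listed value of 0 in wox5-1 replicate 1, against 31.1 to 48.6 FPKM in the other 8 libraries. RBR1 and TPL overlap another annotated gene.

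Of 8 genes of columella auxin transport and gravity response, 6 were tested. The auxin exporters PIN3, PIN4 and PIN7 rose in wox5-1, beside 13.7% of all tested genes called higher. This was opposite to SMB and the BRN genes. PIN3 went from 8.14 ± 0.302 to 15.3 ± 2.00 FPKM (0.83, adjusted p = 0.00951) and PIN7 from 11.6 ± 0.880 to 19.8 ± 1.43 (0.72, adjusted p = 0.0131). PIN4 went from 6.89 ± 2.07 to 13.0 ± 3.39 (0.83, adjusted p = 0.0362), a call lost with the replicate block (adjusted p = 0.0678), without the filter (adjusted p = 0.0585) and without Col-0 replicate 2 or 3 or wox5-1 replicate 1 or 3 (adjusted p of 0.0956 to 0.114). In seu-3 PIN3 fell to 4.65 ± 1.19 FPKM (-0.72, adjusted p = 0.00898) and PIN7 to 6.38 ± 1.60 (-0.80, adjusted p = 0.00568). They were 2 of the 6, beside 34.2% of all tested genes called lower. With quantile normalization PIN3 was not called (adjusted p = 0.0855). PIN4 was not called in seu-3, at 8.21 ± 2.27 FPKM (0.22, adjusted p = 0.488). LZY4, ARG1 and ARL2 were not called in either mutant against Col-0. ARL2 was called higher in wox5-1 under some alternatives, such as sample quality weights (0.50, limma adjusted p = 0.0184). Between the mutants PIN3, PIN7 and ARL2, 3 of the 6, were lower in seu-3, beside 44.6% of all tested genes. PIN4, LZY4 and ARG1 were not called there. The ARL2 call (-0.59, adjusted p = 0.00978) was lost with median-ratio scaling (adjusted p = 0.0637) and quantile normalization (-0.17, adjusted p = 0.480). ARG1 was called higher in seu-3 than in wox5-1 with both scalings (limma adjusted p = 0.00404 and 0.0283). PIN4 was called lower there under some alternatives, such as sample quality weights (-1.02, limma adjusted p = 0.00164). PIN3, PIN4 and PIN7 are also made in the stele of the root, outside the cap.

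Counts over the 7 tested genes were read beside those of all tested genes. They are a description, since the genes were chosen with earlier results of these data known. In wox5-1 against Col-0, 0 of the 7 tested rose and 5 fell (SMB, BRN1, BRN2, BFN1 and CEL5), where 13.7% of all tested genes were called higher, 13.5% lower and 27.3% in all. In 5 of the 7 the libraries did not overlap, as in 50.2% of all genes. In seu-3 against Col-0, 1 rose (BFN1) and 2 fell (SMB and ARF16), beside 6.66% higher, 34.2% lower and 40.8% called in all. Libraries did not overlap in 5 of the 7, beside 56.3% of all genes. Between the mutants, 4 were higher in seu-3 (BRN1, BRN2, ARF10 and BFN1) and 1 was lower (ARF16), beside 19.9% higher, 44.6% lower and 64.5% called in all, and libraries did not overlap in 7 of the 7, beside 71.0%. The F test over the 3 genotypes called 6 of the 7, all but ARF10 (adjusted p = 0.0673), beside 65.6% of all genes.

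**Figure D4:**
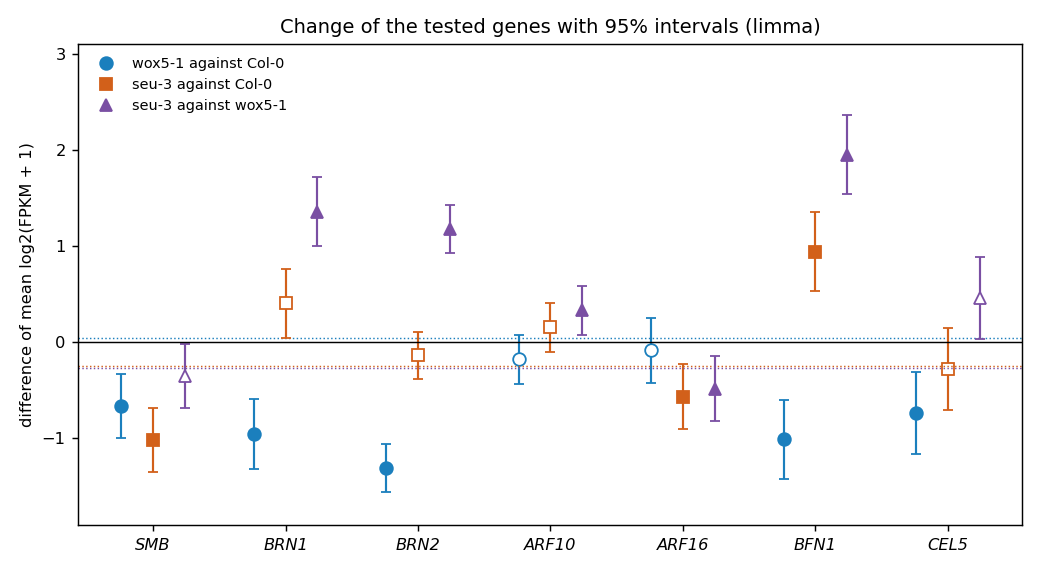
Difference of mean log2(FPKM + 1) with 95% intervals from limma for the 7 tested genes in 3 contrasts, with filled symbols for called changes and dotted lines at the median of all tested genes in each contrast. In wox5-1 the 3 NAC factors, BFN1 and CEL5 lie below 0, and in seu-3 against Col-0 SMB lies at -1.01 and BFN1 at 0.94.

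The genes whose log2(FPKM + 1) followed a root cap factor most closely over the 9 libraries were listed as a description. These correlations share the 3 genotypes and the libraries, so they mostly restate the order of the genotypes. For SMB they were FRO4 (r = 0.981), AT5G06570 (r = 0.977) and RSL2 (r = 0.974). For BRN1 they were AT1G52910 (r = 0.993), CRCK1 (r = 0.988) and CYT1 (r = 0.987), and for BRN2 CEN2 (r = 0.995), NRT1:2 (r = 0.993) and Tic32-IVa (r = 0.992). For ARF16 they were SCL28 (r = 0.987), UBP19 (r = 0.976) and AT5G41950 (r = 0.975). BRN1 and BRN2 had different closest genes: CEN2 averaged 50.1, 16.1 and 41.2 FPKM for Col-0, wox5-1 and seu-3, and AT1G52910 was 100.7, 68.7 and 123.6.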

How the data were processed

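Per the labels, RNA sequencing was done on root tips of 3 Col-0, 3 wox5-1 and 3 seu-3 samples. The deposited values are FPKM per gene; the submitters' processing notes name Bowtie, Cufflinks and TAIR10, with versions and options not given in the sources used here. Testing was limited to the 17062 of 33560 genes that averaged 1 FPKM or more across the 9 libraries. Genotype was the term of a single model of log2(FPKM + 1) in limma 3.58.1 (R 4.3.3), with a trended variance prior, and p-values were adjusted by Benjamini-Hochberg over all tested genes. Ratios and FEZ used exact two-sided permutation tests. Sequences and names come from RefSeq TAIR10.1, read by its own annotation; the promoter of BRN1 is not reported here. Figures were drawn with matplotlib 3.10.9 in Python 3.11.15. Alternatives were median-ratio scaling, quantile normalization, a replicate block, sample quality weights, an untrended prior, a pseudocount of 0.1, filters of 0 and of 5 FPKM, fits of only the 6 libraries compared and leaving out each library. Depth is unknown, so no counting intervals are given. The root cap genes and the gene lists were chosen with earlier results of these data known. Named genes were all 8, WOX5 and SEU, each called gene of a list (the 4 with the smallest p where more than 5 were called), and the 3 genes closest to SMB, BRN1, BRN2 and ARF16; not all of these are printed, and other list genes were named after their values were seen.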

Additional observations from a re-analysis of the deposited data

How the results depend on the processing

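Changes of the 7 tested root cap genes were recomputed in 378 alternatives over 21 changes: 348 stayed on their side of the threshold, 15 lost the call and 15 gained it. No called change turned sign, and 5 alternatives turned the sign of 4 changes that were not called (SMB between the mutants, BRN2 and CEL5 in seu-3, ARF16 in wox5-1 without Col-0 replicate 1, at 0.05). The count of root cap genes called in seu-3 against Col-0 was 5 with sample quality weights, against 3. The alternatives for the gene lists were chosen after seeing the data. The count of cell death genes called in seu-3 against Col-0 was 4, and 7 with median-ratio scaling and with sample quality weights; leaving out 1 library gave 3 to 7. The count of separation genes called in wox5-1 was 1, and it was 0 without the filter, 0 with the replicate block, 0 with only the 6 libraries compared and 2 with sample quality weights; leaving out 1 library gave 0 to 2. Of 231 alternatives for the ratios, 4 turned sign. SMB over FEZ in seu-3 against Col-0 was 1.22 with a pseudocount of 0.1, against -0.31. In wox5-1, leaving out 1 library gave -0.010 (Col-0 replicate 2) to 0.16 for ARF16 over ARF10, at 0.09 with all, and -0.28 to 0.092 (wox5-1 replicate 3) for CEL5 over SMB, at -0.07 with all and 0.06 when Col-0 replicate 1 was dropped. Among list genes, HSL2 was called higher in seu-3 against wox5-1 with quantile normalization (0.41, against -0.03) and ARG1 higher in seu-3 against Col-0 with median-ratio scaling (0.26, against -0.03). TPL, listed at 0 in wox5-1 replicate 1, was 1.36 in seu-3 against wox5-1 and -0.50 when that library was left out; leaving out others gave up to 2.31. The cause of changed calls was not tested.

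Replicate numbers showed no clear pairing: deviations of same-numbered libraries correlated at -0.263 to 0.193, with 2 of 9 pairs over 0.1, and those of different numbers at -0.362 to 0.346, with 6 of 18 over 0.1. The deviations were taken from means of 3 libraries, so these correlations depend on each other and cannot exclude a block. With the replicate block the counts of root cap genes called stayed at 5 in wox5-1, 3 in seu-3 and 5 between the mutants. That block left 1432 of all tested genes called higher and 1754 lower in wox5-1 against Col-0. Over all genes, wox5-1 against Col-0 had 2346 called higher and 2307 lower, against 4043 and 3090 with sample quality weights, 1007 and 1641 without Col-0 replicate 1, 526 and 997 without Col-0 replicate 2, 1349 and 1668 without Col-0 replicate 3 and 524 and 1166 without wox5-1 replicate 1. The seu-3 counts of 1136 and 5830 became 2459 and 8581 with sample quality weights, 2280 and 2350 with quantile normalization and 681 and 3894 without seu-3 replicate 3. Depth is unknown, so no counting error can be given for FEZ and other genes near 0.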
